A study of Mus musculus with 1600 samples.

Results

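Of the 22092 gene symbols counted in single cells of the developing mouse limb, 10 that mark mast cells, macrophages or both are described here: Cma1, Cpa3, Hdc, Tpsb2, Fcer1g, Tyrobp, Ctss, Pf4, C1qb and Cx3cr1. They were chosen by their counts in these cells, which earlier results of these data had shown to be high in few of them, so the cells and levels are given as a description without a test. A cell was called a mast-combination cell when at least 2 of Cma1, Cpa3, Hdc and Tpsb2 reached 1000 CPM (reads of the gene per 1000000 reads of that cell), and a macrophage-combination cell when at least 2 of C1qb, Cx3cr1 and Pf4 did. Fcer1g, Tyrobp and Ctss entered neither definition.

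The cells came from hind limbs of SCX-GFP transgenic embryos on a C57BL/6 background at embryonic day E10.5, at E12.5 or at E15.5. All groups carry the transgene, which reports the tendon transcription factor scleraxis, and the labels name no sort on GFP. At each stage, limbs of siblings from 1 litter were dissociated together and the suspension was loaded on a Fluidigm C1, which traps single cells in microfluidic chambers. Each stage is therefore 1 sample, no test between stages was possible, and the intervals given cover counting error only.

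With 3 cells of fewer than 1000 detected genes removed, 119 E10.5, 158 E12.5 and 200 E15.5 cells were kept, with medians of 272198, 250710 and 192228 reads and a range of 2681 to 1185267 over all kept cells. The cells fell into 12 library pools of 40 cells, of which 1 to 3 were E10.5 libraries, 4 to 7 E12.5 libraries and 8 to 12 E15.5 libraries, and all pools shared the same 40 cell barcodes. A barcode therefore names a cell only together with its pool. The cells labelled E10.5 went against their tissue label, with 0 reads of the hind limb gene Pitx1 and Tbx5, a forelimb gene, read in 87 of 119 cells. Each direction given against that stage below is a direction against the library labelled E10.5.

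Mast cells are tissue-resident cells of blood origin that store proteases, histamine and proteoglycan in granules and release them when IgE bound to the receptor Fc epsilon RI is crosslinked. Macrophages clear dying cells and debris, make the complement component C1q, and in the embryo come largely from yolk sac and fetal liver precursors. Both cell types signal through adaptors with an immunoreceptor tyrosine-based activation motif (ITAM), which recruit the kinase Syk.

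The promoters of 4 of the genes are shown, each of which holds the core marked in it. Cma1 and Cpa3 were high in the same cells and Pf4 and C1qb in another. Each line gives the 250 bases before the RefSeq start of the gene on GRCm38.p6, 5' to 3' on the gene's strand. In Cma1 (chr14:55944676-55944925, minus strand) and Cpa3 (chr3:20242182-20242431, minus strand) capitals mark the core GATAA or, on the opposite strand, TTATC, which GATA factors such as Gata2 recognise. In C1qb (chr4:136886201-136886450, minus strand) and Pf4 (chr5:90772185-90772434, plus strand) capitals mark the core GAGGAA or, on the opposite strand, TTCCTC, which the myeloid factor PU.1 recognises.
Cma1: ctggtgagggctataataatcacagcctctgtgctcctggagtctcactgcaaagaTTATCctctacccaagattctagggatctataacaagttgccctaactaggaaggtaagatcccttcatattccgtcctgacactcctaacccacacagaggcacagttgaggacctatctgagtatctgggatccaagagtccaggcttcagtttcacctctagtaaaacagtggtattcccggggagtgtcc
Cpa3: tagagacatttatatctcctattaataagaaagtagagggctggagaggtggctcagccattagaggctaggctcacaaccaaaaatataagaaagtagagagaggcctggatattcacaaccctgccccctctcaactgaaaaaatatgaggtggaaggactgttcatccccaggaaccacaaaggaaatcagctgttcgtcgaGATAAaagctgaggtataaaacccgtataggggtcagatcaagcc
C1qb: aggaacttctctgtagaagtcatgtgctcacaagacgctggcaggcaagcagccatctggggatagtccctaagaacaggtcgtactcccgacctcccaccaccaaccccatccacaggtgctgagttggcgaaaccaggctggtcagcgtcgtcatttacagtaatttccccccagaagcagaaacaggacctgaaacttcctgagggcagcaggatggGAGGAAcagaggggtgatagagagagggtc
Pf4: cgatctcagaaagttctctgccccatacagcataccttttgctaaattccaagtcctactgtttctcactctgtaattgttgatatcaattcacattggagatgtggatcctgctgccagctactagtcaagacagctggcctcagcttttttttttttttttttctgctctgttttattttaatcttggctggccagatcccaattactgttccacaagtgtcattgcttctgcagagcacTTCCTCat
The GATAA core lay 194 to 190 bases before the start of Cma1, on the opposite strand, and 45 to 41 bases before the start of Cpa3, on the gene's own strand. The GAGGAA core lay 30 to 25 bases before the start of C1qb and, on the opposite strand, 8 to 3 bases before the start of Pf4. RefSeq windows were matched for 8 of the 10 genes. GATAA on either strand was present in 2 of these 8 windows, against 22.6% of 32851 windows of the same length, and GAGGAA in 3 of 8, Ctss being the other one, against 23.3%. Hdc, high in the same cells as Cma1 and Cpa3, had no GATAA in its window. Cx3cr1 had no GAGGAA in its window, and Tpsb2 had no window. A match of so few letters is a description of the sequence and not a binding site.

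Cells rich in mast cell genes were found at E15.5 and cells rich in macrophage genes at E12.5 and E15.5. Mast-combination cells numbered 4 of 200 at E15.5, 2% with an exact Clopper-Pearson 95% interval of 0.548% to 5.04%. There were 0 of 119 in the E10.5-labelled cells, which allows a share of up to 2.52%, and 0 of 158 at E12.5, which allows up to 1.90%. Macrophage-combination cells numbered 1 of 158 at E12.5 (0.633%, 0.0160% to 3.48%) and 1 of 200 at E15.5 (0.5%, 0.0127% to 2.75%), with 0 of 119 in the E10.5-labelled cells. No cell of 477 met both definitions, a count that allows at most 0.629%. The intervals of the 3 stages overlap for both kinds of cell. Overlap of intervals does not decide whether the shares differ, and a difference in share was not tested.

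**Figure D1:**
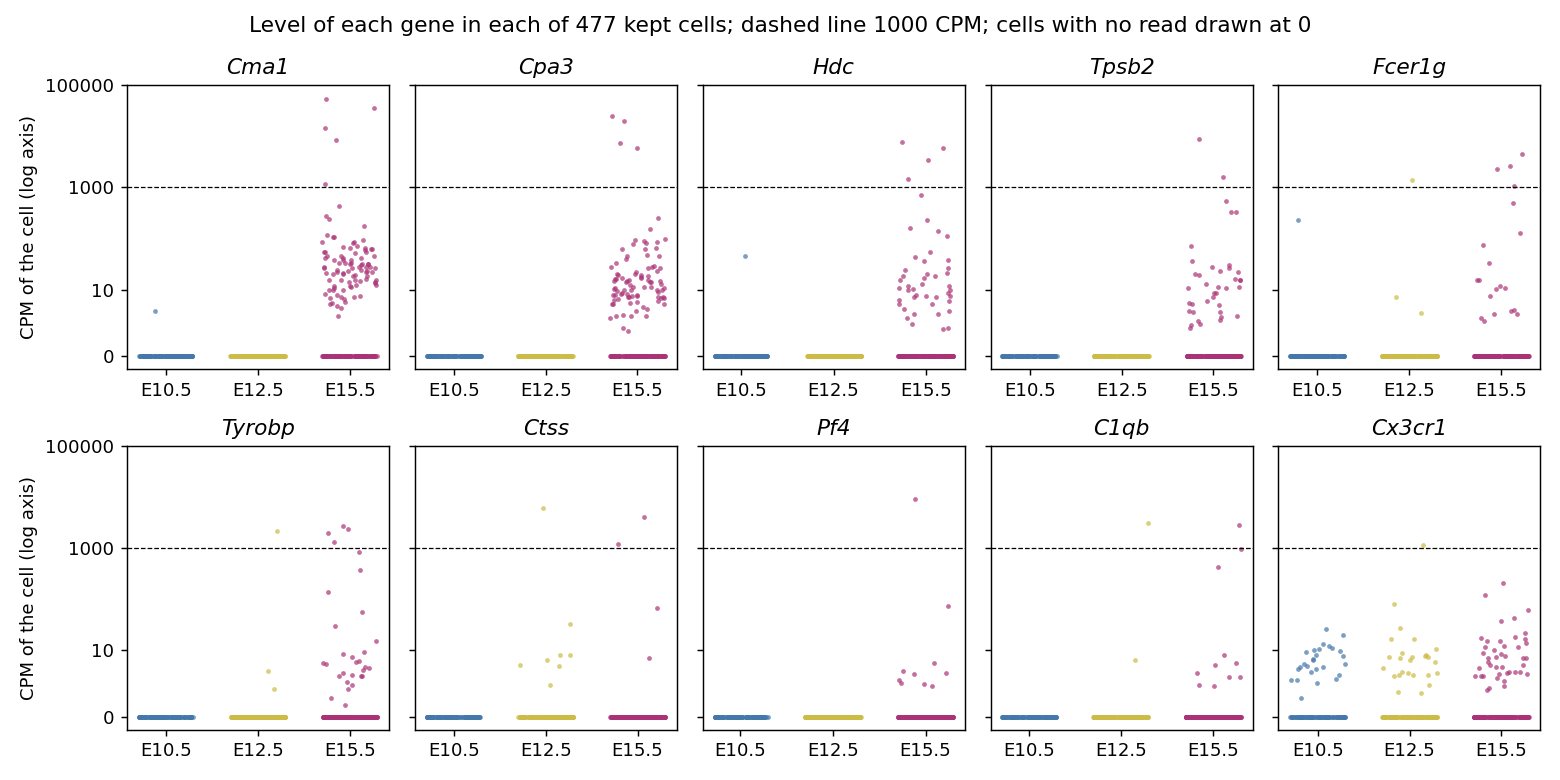
Level of each of the 10 genes in each of 477 cells, by stage label, in CPM on a log axis; each point is 1 cell, cells with no read are drawn at 0 and the dashed line is 1000 CPM. Cma1, Cpa3, Hdc and Tpsb2 pass the line only at E15.5, and Cma1 was read at low levels in many E15.5 cells.

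The mast-combination cells lay in 3 of the 5 E15.5 pools: barcode 38 of pool 10, barcode 24 of pool 11, and barcodes 26 and 38 of pool 12. They held 127713, 328197, 416411 and 200578 reads in that order, which is used below. Barcode 38 occurs in both pool 10 and pool 12, and the profiles of these cells differed, with 1845 genes read in both, 1547 only in the first and 2010 only in the second. The other cells that carry 1 of these barcodes in the E15.5 pools 8 and 9 had 0 reads of Cma1, Cpa3, Hdc and Tpsb2 in 6 of 6 cells.

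The granule proteases come first. Cma1 encodes mast cell chymase (GRCm38 chromosome 14, 55941451 to 55944675, minus strand). Its level was 53785, 8565, 14411 and 35602 CPM in the 4 cells, from 6869, 2811, 6001 and 7141 reads. Cpa3, mast cell carboxypeptidase A (chromosome 3, 20215620 to 20242181, minus strand), was at 24759, 7441, 5792 and 19643 CPM in the same cells. Tpsb2, a tryptase (chromosome 17, 25366305 to 25369098, plus strand), stood at 8621, 332, 334 and 1560.5 CPM, so it reached the threshold in the barcode 38 cells of pools 10 and 12 and not in the other cells.

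Hdc, histidine decarboxylase, the enzyme that makes histamine (chromosome 2, 126593667 to 126619299, minus strand), was at 7493, 1423, 3343 and 5838 CPM. All 4 genes were highest in the cell of pool 10 and next highest in barcode 38 of pool 12. Together they took 9.47%, 1.78%, 2.39% and 6.26% of the reads of the 4 cells.

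Relative to Cma1 the other genes were not in a fixed ratio. In pool 10 the mast-combination cell held 46.0 reads of Cpa3, 13.9 of Hdc and 16.0 of Tpsb2 for each 100 of Cma1. In pool 11 the values were 86.9, 16.6 and 3.88. In pool 12 the pair of cells together gave 48.3, 19.5 and 3.44, so Tpsb2 varied most between pools by this measure.

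The 3 signalling and lysosomal genes outside the definitions were split. Fcer1g, the common gamma chain of Fc receptors and part of the IgE receptor (chromosome 1, 171229572 to 171234365, minus strand), was at 2584, 125, 487 and 1042 CPM in the mast-combination cells and at 1388 and 2312 CPM in the E12.5 and E15.5 macrophage-combination cells. Tyrobp, the adaptor DAP12 (chromosome 7, 30413760 to 30417585, plus strand), stood at 2388, 366, 817 and 139.6 CPM in the former and at 2108 and 1962 CPM in the latter. Both adaptors were thus read in all 6 cells, and the ranges of the 2 kinds of cell overlap for each.

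Ctss, the lysosomal protease cathepsin S of antigen-presenting cells (chromosome 3, 95526786 to 95556403, plus strand), had 0 reads in each mast-combination cell. It was at 6118 CPM in the macrophage-combination cell of E12.5, from 238 reads, and at 4011 CPM in that of E15.5, from 229 reads. The 2 kinds of cell did not overlap for this gene. It did not enter the definitions, but it was chosen with its values in these cells known. The share of all genes without such an overlap was not computed.

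The macrophage-combination cells were barcode 28 of pool 5 at E12.5, with 38899 reads, and barcode 7 of pool 8 at E15.5, with 57086 reads. Only 6 of 158 cells of their stage had fewer reads than the former and 19 of 200 fewer than the latter. C1qb, a chain of complement C1q (chromosome 4, 136880129 to 136886187, minus strand), was at 3111 CPM and 2750.2 CPM in these cells, from 121 and 157 reads.

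The other macrophage genes differed between the 2 cells. Cx3cr1, the receptor of the chemokine fractalkine (chromosome 9, 119901616 to 120069879, minus strand), was at 1131 CPM (44 reads) in the E12.5 cell and at 17.5 CPM (1 read) in the E15.5 cell. Pf4, the chemokine platelet factor 4 (chromosome 5, 90772435 to 90773383, plus strand), went the other way, with 0 reads in the E12.5 cell and 9267 CPM (529 reads) in the E15.5 cell. C1qb with Cx3cr1 thus defined the first cell and C1qb with Pf4 the second. With 1 cell at each stage, the stage and the cell cannot be told apart.

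Pf4 is also a platelet gene, and the platelet list did not follow it. Of 9 genes of megakaryocytes and platelets the E15.5 macrophage-combination cell had reads of 1, Vwf, at 17.5 CPM, and the E12.5 cell of none. Ppbp and Gp9, which define platelets, were at 0 in all 477 cells.

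Cx3cr1 crossed between the kinds of cell at low level, at 62.6, 204, 0 and 119.7 CPM in the mast-combination cells. C1qb, Pf4 and Ctss were at 0 reads in each of those 4 cells, and Cma1, Cpa3, Hdc and Tpsb2 were at 0 in both macrophage-combination cells. The gene span of Cx3cr1, introns included, overlaps 9 other genes in the annotation. Overlap of exons was not measured, and whether counting used strand was not given in the sources used here. Whether reads of an overlapping gene entered the Cx3cr1 counts was not tested.

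**Figure D2:**
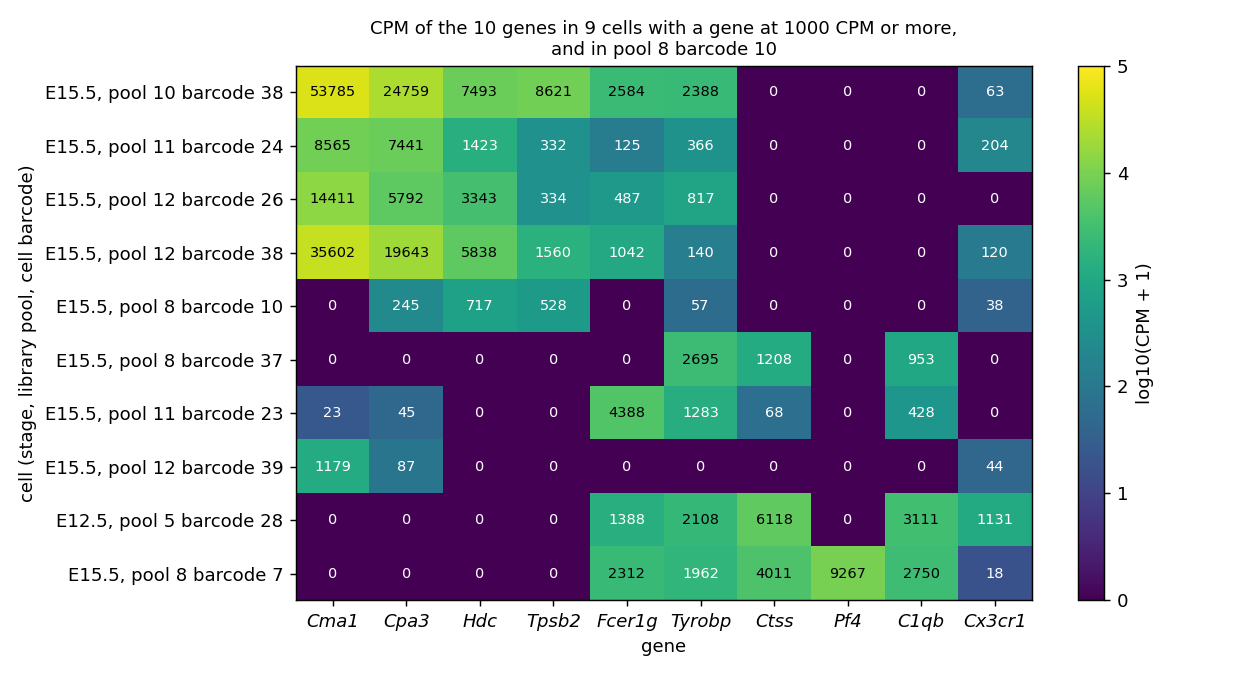
CPM of the 10 genes (columns) in the 9 cells with any of them at 1000 CPM or more and in barcode 10 of pool 8 (rows); the number in a field is the CPM and the colour its log10(CPM + 1). The 4 mast-combination cells (top) have 0 for Ctss, Pf4 and C1qb, and the macrophage-combination cells (bottom) have 0 for the 4 mast cell genes.

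Of 477 cells, 9 had any of the 10 genes at 1000 CPM or more, 1 at E12.5 and 8 at E15.5, so 3 such cells met neither definition. Barcode 37 of pool 8, with 78663 reads, had Tyrobp at 2695 CPM, Ctss at 1208 CPM and C1qb just under the threshold at 953 CPM (75 reads). Barcode 23 of pool 11, with 44436 reads, had Fcer1g at 4388 CPM, Tyrobp at 1283 CPM and C1qb at 428 CPM, with 22.5 CPM of Cma1 and 45.0 CPM of Cpa3. Neither cell had a read of Pf4 or Cx3cr1.

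Barcode 39 of pool 12 reached the threshold for Cma1 alone, at 1179 CPM, which is 27 reads of 22899. It had 2 reads of Cpa3 and none of Hdc, Tpsb2, Fcer1g and Tyrobp. Just below the threshold lay barcode 10 of pool 8, with 53012 reads, which had Hdc at 717 CPM, Tpsb2 at 528 CPM, Cpa3 at 245 CPM and 0 reads of Cma1. Around the threshold, the lowest value inside and the highest outside were 5792 and 245 CPM for Cpa3, 1423 and 717 for Hdc, 1560.5 and 528 for Tpsb2, 1179 and 437 for Cma1, 9267 and 73.4 for Pf4, 1131 and 204 for Cx3cr1, and 2750.2 and 953 for C1qb.

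Lists of other marker genes, not used by the definitions, were read in these cells as a check of the names. Of 20 further mast cell genes, 13, 9, 11 and 12 were read in the mast-combination cells, summing to 20640, 4196, 6287 and 6915 CPM. The 192 E15.5 cells without any of the 10 genes at 1000 CPM summed to a median of 985 CPM and a highest of 4482 CPM, so 3 of the 4 cells lay above all of them and the pool 11 cell did not. The macrophage-combination cell of pool 8 summed to 5115 CPM, also above all 192 cells and above the pool 11 cell. That of pool 5 summed to 2931 CPM. The sum alone thus did not separate the kinds of cell. In the macrophage-combination cells 18 of the 20 genes were at 0, and Cd63 made up most of the sum. Cd63 is a granule and lysosome protein that 91 of the 192 cells also held at 1000 CPM or more. In the mast-combination cells Cd63 gave 4941, 2179, 2694 and 2548 CPM of the sums.

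Gata2, a transcription factor of mast cell precursors, was read in each mast-combination cell, at 602.9, 560.6, 701 and 339 CPM. Kit, the receptor of stem cell factor, was at 1464, 621.6, 694 and 214 CPM. Srgn, the core protein of the granule proteoglycan serglycin, was at 6428, 283, 1469.7 and 1182 CPM, against 0 of the 192 other cells at 1000 CPM or more. Gata2, Kit and Srgn were at 0 in both macrophage-combination cells.

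Other mast cell genes were uneven. Tpsab1, the other tryptase of this family measured, was at 3195, 122, 0 and 29.9 CPM, highest in the same cell as Tpsb2. Mrgprb1, a receptor of the Mas-related family, was at 1237 CPM in the cell of pool 10 and at 0 in the others, and Lat2, an adaptor of Fc receptor signalling, was at 979, 107, 228 and 1281 CPM. Il1rl1, the receptor of interleukin 33, was at 673, 296, 173 and 204 CPM.

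Other genes that define mast cells had few reads or none. Fcer1a, the IgE-binding chain of the receptor to which Fcer1g belongs, had no read in any of 477 cells, and Ms4a2, its beta chain, was read in barcode 26 of pool 12 alone among the 4, at 134 CPM. Mcpt4, another chymase, was at 15.0 CPM in barcode 38 of pool 12 and at 0 in the others. Of 4 basophil genes, Prss34 was at 62.6, 363, 0 and 1849.7 CPM and Mcpt8 was at 15.0 CPM in 1 of the cells.

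Of 20 macrophage genes, 16 were at 0 in all 4 mast-combination cells, and the summed level was 249 to 1370.3 CPM, within the range of 0 to 1479.8 CPM in the 192 other E15.5 cells. The macrophage-combination cells of E12.5 and of E15.5 had reads of 7 and 11 of these 20 genes, summing to 5090.1 and 22142 CPM. Mrc1, the mannose receptor CD206, was at 2159 and 3311 CPM there and was read in no other of the 477 cells. C1qc and C1qa, the partner chains of C1qb, were at 386 and 4257 CPM and at 746 and 981 CPM.

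The E15.5 cell had genes that the E12.5 cell lacked. Csf1r, the receptor of the macrophage growth factor CSF1, was at 4642 CPM, F13a1 at 2277 CPM and Fcrls at 1331 CPM in the E15.5 cell, and each had 0 reads in the E12.5 cell. Aif1, which encodes the microglia and macrophage protein IBA1, was at 1105 CPM in the E12.5 cell and at 0 in the E15.5 cell. Adgre1 (F4/80), Cd68 and Lyz2, also used to define macrophages, were at 0 reads in both cells. These cells held 38899 and 57086 reads, so a gene at 0 there is not shown to be absent.

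Barcode 37 of pool 8 and barcode 23 of pool 11, which met neither definition, each had some of these macrophage genes. The former had reads of 9 of the 20, summing to 7665.6 CPM. That is more than in the E12.5 macrophage-combination cell, with 7 genes and 5090.1 CPM. The latter had reads of 4, summing to 1440.3 CPM. Barcode 37 of pool 8 had Csf1r at 1691 CPM, C1qc at 1538 CPM, Trem2, a lipid-sensing receptor that signals through Tyrobp, at 648 CPM, and Lyz2 at 788 CPM. Barcode 23 of pool 11 had F13a1 at 1170.2 CPM, Lyz2 at 67.5 CPM and 0 reads of Csf1r, C1qa and C1qc. Of the genes of all leukocytes, barcode 23 had Alox5ap at 2475 CPM, Rac2 at 2160.4 CPM and Cd52 at 1575 CPM.

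Genes of all leukocytes were read in the 6 combination cells, with summed levels of 3013 to 7939.7 CPM in the mast-combination cells and 5296 and 4029 CPM in the macrophage-combination cells, against a highest of 1981 CPM in the 192 other E15.5 cells. The 192 leave out the cells that met neither definition but had a gene at 1000 CPM. Of those, barcode 37 of pool 8 summed to 8390 CPM and barcode 23 of pool 11 to 10284.5 CPM, above all 6 combination cells. Barcode 39 of pool 12 summed to 0. Laptm5, a lysosomal protein of blood cells, was read in all 6, at 3429.6, 975, 788 and 663 CPM in the mast-combination cells and at 1337 and 2575 CPM in the others. Ptprc (CD45), which defines leukocytes, was at 681 CPM in the pool 10 cell and 216 CPM in the pool 11 cell and at 0 in the other 4 combination cells, and Itgb2 was at 0 in all 477 cells. Spi1, which encodes PU.1, was at 0, 57.9, 4.80 and 269 CPM in the mast-combination cells. It was at 0 in both macrophage-combination cells and at 584.8 CPM in barcode 37 of pool 8.

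Downstream of the ITAM adaptors the reads were sparse. Of 15 genes of this pathway, 8 were at 0 in all 4 mast-combination cells and 11 in both macrophage-combination cells, and Syk itself was at 0 in all 6. Inpp5d, the phosphatase SHIP1 that dampens the pathway, was at 274, 399, 57.6 and 244 CPM in the mast-combination cells. Lcp2, the adaptor SLP-76, was at 227, 42.7, 106 and 39.9 CPM in these and at 77.1 and 1016 CPM in the macrophage-combination cells.

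Genes of other cells moved with some of these values. Limb mesenchyme genes summed to 266, 4988, 9037 and 289 CPM in the mast-combination cells and to 334 and 10948 CPM in the macrophage-combination cells, against a median of 10466 CPM (203 to 53930.3) in the 192 other E15.5 cells. The mesenchymal sum was thus lowest in the barcode 38 cells of pools 10 and 12, where Cma1, Cpa3, Hdc and Tpsb2 were highest, and 9 or more of 10 of these genes were read in the remaining mast-combination cells. In the E15.5 macrophage-combination cell Col1a1 was at 5448 CPM and Col1a2 at 4852 CPM. The part of mesenchymal RNA or of a second cell in these values was not tested. The 9 erythroid genes were at 0 in the 4 mast-combination cells, and Nkg7, a granule gene of lymphoid and other cytotoxic cells, was at 375 CPM in barcode 26 and 3495 CPM in barcode 38 of pool 12.

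**Figure D3:**
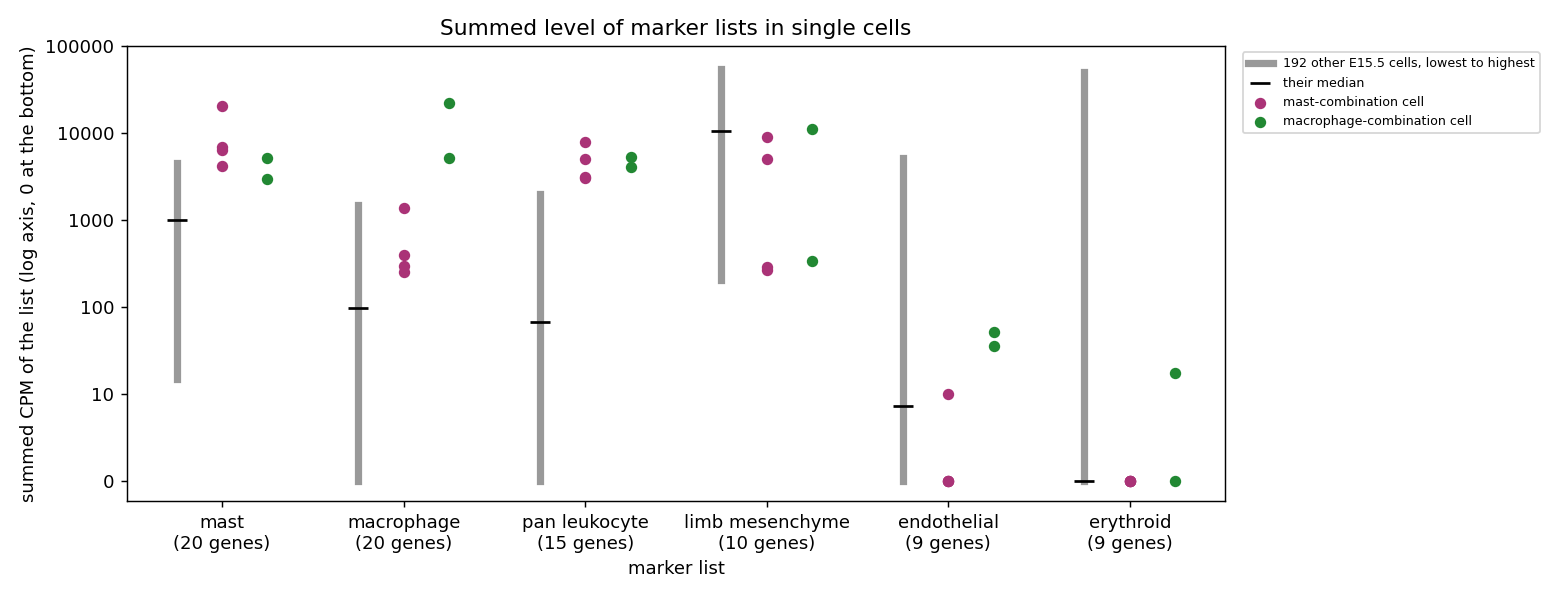
Summed CPM (log axis, 0 drawn at the bottom) of 6 marker lists in the 4 mast-combination cells and 2 macrophage-combination cells, as points, beside the range and median of 192 other E15.5 cells. The leukocyte sums of all 6 cells, 1 of which is from E12.5, lie above the range, and the limb mesenchyme sums lie within it. E15.5 cells with a gene at 1000 CPM that met neither definition are not drawn.

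Beyond the lists, genes were ranked by their difference in mean log2(CPM + 10) between the 2 kinds of cell, as a description with 4 cells against 2. Serpinb1a, an inhibitor of granule proteases, led on the mast side at 5035, 639.9, 1633 and 4517 CPM and was at 0 in both macrophage-combination cells and at 1000 CPM or more in 0 of the 192 other E15.5 cells. Ldha, lactate dehydrogenase, was at 6585, 3784, 2123 and 4148 CPM against 797 and 70.1 CPM. The other genes on that side, apart from Srgn, are read in most cells: Rpl18, Rps26, Rplp0, Eif5a, Oaz1, Gm9786 and the proliferation gene Top2a, which was at 39.2, 1146, 4452 and 1261 CPM.

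On the macrophage side Apoe, the lipid carrier apolipoprotein E, was at 5347 and 28186 CPM against at most 4.99 CPM in the mast-combination cells. Mrc1 came next. The lysosomal proteases Ctsb (3830.4 and 12455 CPM) and Ctsa (4062 and 1524 CPM) followed, with at most 432 and 321 CPM in the mast-combination cells. Apoe was also at 2187 and 2610.5 CPM in barcode 37 of pool 8 and barcode 23 of pool 11, which had C1qb below the threshold. Ckb, Gtf2i, Eif3i, Marcks, Hspa4 and Etfb completed this side.

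Likeness between genes was measured over the 477 cells. Pearson's r of log2(CPM + 10) was 0.83 for Cma1 with Cpa3, 0.82 for Fcer1g with Tyrobp, 0.96 for Ctss with C1qb and -0.02 for Cma1 with C1qb. Among 3374 other genes at 1000 CPM or more in at least 3 cells, Srgn was most like each mast cell gene, with r of 0.69 for Cma1, 0.74 for Cpa3, 0.68 for Hdc and 0.75 for Tpsb2. Gpr65, a proton-sensing receptor of blood cells, was most like Tyrobp (0.75) and Pf4 (0.40), and Laptm5 was most like Fcer1g (0.65), Ctss (0.48), C1qb (0.51) and Cx3cr1 (0.41). Cells of a pool share a library, and most cells have no read of these genes, so the values are descriptions.

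Summed over all cells of a stage, the mast cell genes were read almost only at E15.5. Cma1 stood at 507 CPM (exact Poisson 95% interval 501 to 514) at E15.5, with 1 read in the E10.5-labelled cells and 0 at E12.5. Cpa3 stood at 267 CPM (262 to 272), Hdc at 90.0 CPM (87.3 to 92.8) and Tpsb2 at 38.1 CPM (36.4 to 40.0). The 4 mast-combination cells held 97.7%, 97.3%, 96.2% and 94.6% of these reads, so the stage level is the level of 4 cells among 200. In such a sum, fewer cells of a type and less RNA per cell cannot be told apart.

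Against E12.5, with 0 reads set to a floor of 3 reads per stage, Cma1 was at least 7779.9-fold, Cpa3 at least 4092-fold and Hdc at least 1381-fold higher at E15.5. Against the E10.5-labelled cells, Cpa3 was at least 3001-fold and Tpsb2 at least 429-fold higher. Hdc was 253-fold higher (145 to 490.3) against 12 reads, all in barcode 20 of pool 3, and Cma1 17117-fold higher (3072 to 676111) against its 1 read. Without pool 12, which held a pair of the cells, the E15.5 levels were 283 CPM for Cma1, 164 CPM for Cpa3 and 43.7 CPM for Hdc, and without pool 10 Tpsb2 was at 16.1 CPM.

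The adaptors were read at more than 1 stage. Fcer1g was at 2.22, 1.24 and 25.0 CPM in the 3 stages in order of age, and 1 cell, barcode 39 of pool 1, held all 75 reads of the E10.5-labelled cells. Tyrobp was at 0, 1.83 and 26.3 CPM. Against E12.5, Fcer1g was 20.1-fold (15.4 to 26.8) and Tyrobp 14.4-fold (11.5 to 18.2) higher at E15.5. Barcode 28 of pool 5 held 94.7% and 97.6% of the E12.5 reads of these genes, and without pool 5 both were at 0 CPM at E12.5.

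Of the macrophage genes, Ctss was at 0, 5.50 and 7.15 CPM, C1qb at 0, 2.65 and 5.71 CPM, and Pf4 at 0, 0 and 13.6 CPM. At E15.5 against E12.5 this was 1.30-fold (1.10 to 1.54) for Ctss, 2.15-fold (1.73 to 2.69) for C1qb and at least 208-fold for Pf4. The highest cell of each stage held 94.1% and 69.6% of the reads of Ctss and 99.2% and 59.7% of those of C1qb, and 84.6% of those of Pf4 at E15.5. Without pool 8 the E15.5 level was 0.0863 CPM for Ctss, 0.546 CPM for C1qb and 2.50 CPM for Pf4, and without pool 5 the E12.5 levels of Ctss and C1qb were 0 CPM, so each of these levels rests on 1 pool.

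Cx3cr1 differed from the other 9 genes in that it was read in scattered cells at every stage, in 27 of 119, 26 of 158 and 43 of 200 cells. In the E10.5-labelled cells its highest value was 26.1 CPM, from 6 reads. The summed level was 1.66, 2.04 and 3.41 CPM at the 3 stages, which is 1.67-fold (1.28 to 2.18) higher at E15.5 against E12.5. Barcode 24 of pool 11, a mast-combination cell, held 42.7% of the E15.5 reads, and without pool 11 the E15.5 level was 1.96 CPM. Without pool 5 the E12.5 level was 1.09 CPM.

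Of the 10 genes, 6 had 0 reads in the E10.5-labelled cells and 5 had 0 reads at E12.5. All 10 passed the filter on low counts of a read in at least 10 kept cells. Ctss passed mainly through E12.5, with 8 cells there and 4 at E15.5, Cx3cr1 passed in each stage alone, and the other genes passed through E15.5. A gene was called different between stages when the log2 ratio of CPM + 5 reached 1 in size with no overlap between the pools of the 2 stages. By this rule 0 of the 10 were called higher at E12.5 than in the E10.5-labelled cells, against 7.76% of 13125 genes. At E15.5 against E12.5, 0 of 10 were called higher, against 2.99% of all genes. At E15.5 against the E10.5-labelled cells, 1 of 10 was, against 11.2%: Tyrobp, with a log2 ratio of 2.65. None was called lower in the 3 comparisons, against 2.83%, 1.63% and 5.01% of all genes. With 5 CPM added, a gene below 5 CPM at the earlier stage cannot be called lower, which holds for all 10 at E10.5 and for all but Ctss (5.50 CPM) at E12.5, so nothing is read from the counts of lower genes.

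The fold condition alone gave other counts. At E15.5 against E12.5, 7 of 10 genes passed it (Cma1, Cpa3, Hdc, Tpsb2, Fcer1g, Tyrobp and Pf4), against 7.29% of all genes, and at E15.5 against the E10.5-labelled cells, 9 of 10 did, all but Cx3cr1, against 18% of all genes. At E12.5 compared with the E10.5-labelled cells only Ctss passed it, against 13% of all genes. In the lower direction, where the same limit holds, 0 of 10 passed it, beside 3.9%, 4.3% and 6.81% of all genes at E12.5 from E10.5, E15.5 from E12.5 and E15.5 from E10.5. The median log2 ratio of the 10 genes was 0.00 at E12.5 from E10.5, 2.23 at E15.5 from E12.5 and 2.35 at E15.5 from E10.5, and in the same order 0.17, -0.04 and 0.15 over all genes tested. These comparisons share stages, and the genes were chosen with these values known. Pool 9 of E15.5 held 0 reads of Cma1, Cpa3, Hdc, Tpsb2, Pf4, Ctss and C1qb, 23 of Fcer1g and 1 of Tyrobp. Without pool 9, 5 genes (Cpa3, Hdc, Tpsb2, Fcer1g and Tyrobp) were called higher at E15.5 against either stage, beside 461 of 13125 genes against E12.5 and 1632 against E10.5. Without pool 5, Fcer1g and Tyrobp were called higher at E15.5 against E12.5, beside 488 of all genes. Without pool 1 the same pair was called against the E10.5-labelled cells, beside 1785 of all genes.

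Counted by cells instead, 5 of the 10 genes (Cma1, Cpa3, Hdc, Tpsb2 and Pf4) were at 1000 CPM or more in some cell at E15.5 and in none at the earlier stages, against 13.5% of 13125 genes. Of the lists, 11 of 20 mast cell genes, 6 of 20 macrophage genes and 10 of 15 leukocyte genes passed the filter on low counts. At E15.5 against E12.5, 1 mast cell gene was called higher (Srgn), 0 macrophage genes and 1 leukocyte gene (Arhgdib), beside 2.99% of all genes. The median log2 ratios were 0.82, 0.56 and 0.95 over the genes that passed, beside -0.04 over all genes tested. At E12.5 against the E10.5-labelled cells 0 mast cell genes and 1 leukocyte gene, Cyba, were called higher, beside 7.76% of all genes. Neither of these 2 lists had a gene called lower in either comparison, beside 1.63% and 2.83% of all genes in the same order. A gene below 5 CPM at the earlier stage cannot be called lower. This limit does not cover widely read list genes such as Cd63, which had a read in 466 kept cells. How many list genes it covers was not counted, so nothing is read from the absence of lower calls.

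Low reads of the mast cell genes outside the combination cells differed between the pools. In the E15.5 pools 10 to 12, which hold the mast-combination cells, Cma1 was read in 92 of 116 other cells (79.3%, 70.8% to 86.3%), with 531 reads in all and 20.7 CPM. In pools 8 and 9, which hold none, it was read in 0 of 79 other cells, a count that allows at most 3.80%. The median depths of these cells were 179268 reads in pools 10 to 12 and 209198 reads in pools 8 and 9. Cpa3 was read in 85 of 116 cells against 2 of 79, Hdc in 40 against 2, and Tpsb2 in 33 against 2. At E12.5 and in the E10.5-labelled cells, where no cell is rich in these genes, Cma1 was read in 0 of 158 and 1 of 119 cells.

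Within each pool the outside reads were a small share of those in the combination cells. For Cma1 they came to 2.68%, 1.67% and 2.28% of them in pools 10, 11 and 12, and for Cpa3 to 1.90%, 2.42% and 3.07%. For Hdc they came to 3.34%, 4.50% and 1.95% and for Tpsb2 to 3.72%, 2.75% and 4.65%. Cells of pools 10 to 12 that share the barcode of a mast-combination cell had Cma1 in 3 of 5 cells, against 89 of 111 with other barcodes. The share of E15.5 cells with a Cma1 read, 48% of 200, stands beside 2.5% of cells at 1000 CPM or more. The source of the low reads was not tested.

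**Figure D4:**
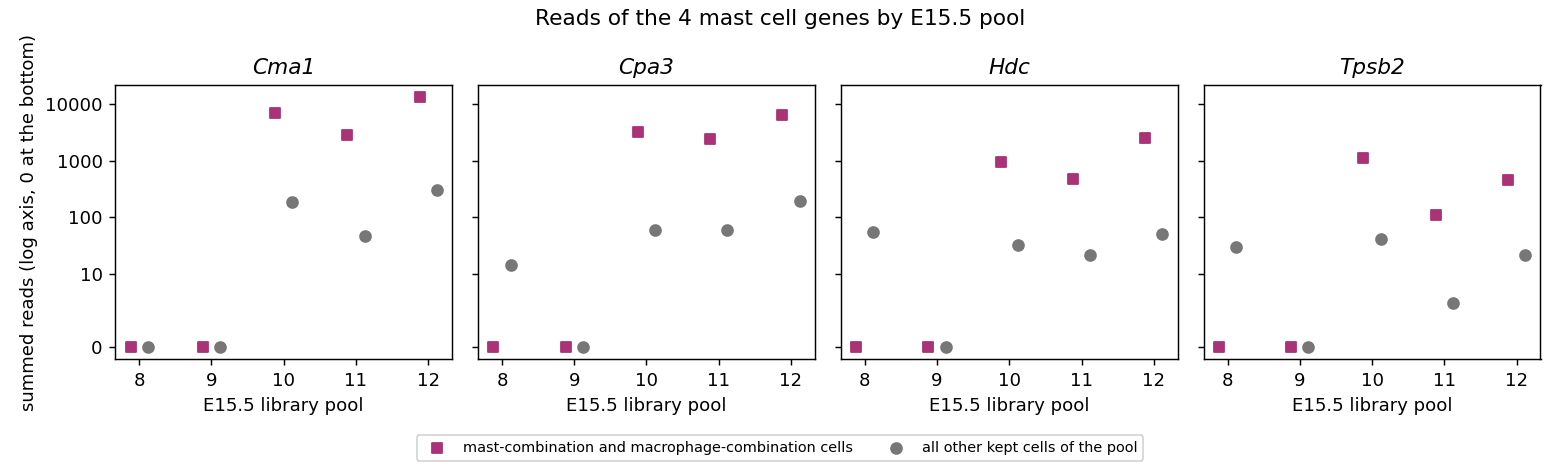
Summed reads (log axis, 0 drawn at the bottom) of Cma1, Cpa3, Hdc and Tpsb2 in each E15.5 library pool, in the combination cells (squares) and in all other kept cells of the pool (circles). Pool 9 has 0 reads of all 4 genes in both, and Cma1 reads outside the combination cells occur only in pools 10 to 12.

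Pool 8 had a pattern of its own. Its other cells held 54 reads of Hdc, 29 of Tpsb2 and 14 of Cpa3 without any Cma1, of which 38, 28 and 13 lay in barcode 10. For the macrophage genes the pools differed by gene. Outside the combination cells C1qb was read in 9 of 39 cells of pool 8, barcode 37 among them, and Pf4 in 8 of 39, but Ctss in 2 of 39. In pool 5 Ctss was read in 7 of 37 other cells, against 0 of 40 in each other E12.5 pool, but C1qb in 1 of 37. Cx3cr1 was read in 8 of 37 other cells of pool 5, 11 of 40 cells of pool 6, which holds no combination cell, and 3 of 39 other cells of pool 8. The largest single Pf4 value outside was in barcode 27 of pool 12, 87 reads of 1185267, which is 73.4 CPM.

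Sequence shared with other genes was limited. Of the 50-base stretches in the annotated transcripts of Cma1, 5.38% also occur in transcripts of Gm48934, and for Hdc and Cx3cr1 the shares found in other genes were 0.141% and 0.269%. For Cpa3, Tpsb2, Fcer1g, Tyrobp, Ctss, Pf4 and C1qb the share was 0. Tpsb2 thus shared no such stretch with Tpsab1.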

How the data were processed

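Expression was measured by single-cell RNA-seq of 480 cells isolated on the Fluidigm C1, with Nextera XT libraries, per the labels' protocols. The values used are the authors' deposited counts of reads per gene and cell, without normalization. Bowtie2, featureCounts and mm10 were used, per the submitters' processing notes. Their versions and settings, strand and any molecular identifiers were not given in the sources used here. PCR can therefore multiply a read. The other 1120 of 1600 samples were not analysed here.

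The 22738 entries gave 22092 symbols after identical repeats were kept once and differing repeats were added up. A cell needed 1000 detected genes, which removed 1 E10.5 cell and 2 E12.5 cells. No doublets were called or removed. No pair of cells held identical counts. CPM were computed from a cell's own total, and stage levels from summed reads over summed totals. Stages had no replicates, so no p-value is given. Intervals are 95%, exact Poisson for sums and exact Clopper-Pearson for shares, with a limit of 3 of n where a share is 0 and a floor of 3 reads for a stage at 0. Scripts ran in Python 3.11.15 with numpy 2.4.6, pandas 2.3.3, scipy 1.17.1 and matplotlib 3.10.9. The call rule was run on simulated counts in which the changed genes were raised in all E15.5 cells, without differences between pools. Genes carried by few cells, as here, were not covered by that run of the rule.

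The 10 genes and the 15 marker lists (157 genes, 3 found under the older symbols Emr1, Sfpi1 and Sykb) were chosen with earlier results of these data known. Named are the 10 genes, up to 6 genes of a list with most combination cells at 1000 CPM, the 10 genes in each direction that differ most between the 2 kinds of cell, and the 3 genes most like each of the 10. Some genes are named to complete a list or were picked with their values in view. These are list genes given as 0, those given for barcodes 37 and 23, and Ptprc, Spi1, Gata2, Il1rl1, Inpp5d, C1qa, Aif1 and Nkg7. The macrophage list at E12.5 against E10.5 is not reported here. Lists for neutrophils, endothelium, cartilage, muscle, epithelium and nerve served as checks. In the mast-combination and macrophage-combination cells their summed levels reached at most 15.7, 51.4, 1942, 180.1, 324 and 4.99 CPM. Promoters, starts and coordinates come from RefSeq GRCm38.p6 and the GENCODE annotation of GRCm38. Alternatives were other thresholds (500 and 2000 CPM), 1 gene in place of 2, at least 10 reads, all cells kept, cells thinned to 50000 reads, added values of 1 and 20 CPM, no filter, no condition on pools, size factors, and each pool left out.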

Additional observations from a re-analysis of the deposited data

How the results depend on the processing

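The number of mast-combination cells at E15.5 stayed within 1.5 times of 4 except when pools were left out, where it ranged from 2 to 4. It was 5 at a threshold of 500 CPM, which adds barcode 10 of pool 8. The macrophage-combination cell of E12.5 was lost at 2000 CPM (0 cells) and after cells were thinned to 50000 reads (0 cells, since it holds fewer reads), and leaving out pools gave 0 to 1 such cells at either later stage. With no condition on pools 1, 7 and 9 genes were called higher at E12.5 than E10.5, at E15.5 than E12.5 and at E15.5 than E10.5. Leaving out pools gave 0 to 5 and 1 to 5 genes in the latter comparisons. Of 30 stage levels, 30 stayed within their counting interval with all cells kept, 28 with size factors, 16 as a mean over cells and 12 without the highest cell. With each pool left out in turn, 56 of 120 values stayed within the interval and 64 moved out of it. Thinning left out 4, 9 and 15 cells at the 3 stages. No paired analysis was possible because each stage is 1 sample and cell numbers only name cells. With 1 to 4 rich cells a stage, absence of such cells at the other stages was not shown, and intervals cover counting error only.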
